A study of Mus musculus with 4 samples.

Results

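The small leucine-rich proteoglycans are a family of secreted matrix proteins, and 10 of their genes, Dcn, Bgn, Aspn, Fmod, Lum, Prelp, Kera, Omd, Ogn and Epyc, were followed here among 18193 genes with a probe set of their own. Members were all probe sets whose platform annotation gives 1 of these symbols and no other, 21 in all. The RNA came from immortalised fibroblasts of mouse embryos and was hybridised to 4 Affymetrix arrays; these cells' PA1 alleles had been flanked by loxP sites in both groups. PA1 -/- cells (2 arrays) had received a retrovirus expressing Cre recombinase, the enzyme that removes DNA between loxP sites. PA1 +/+ cells (2 arrays) had received the empty retroviral vector, and the labels give the same puromycin selection for both. The labels number the arrays 1 and 2 within each genotype and describe duplicated RNAs. They say neither whether these came from separate cultures nor whether the cells were 1 clone. The p-values therefore cover the spread among these arrays alone, which may be technical.

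Proteins of this family have a core of leucine-rich repeats, and most of those studied bind collagen and influence how its fibrils assemble. Decorin (Dcn) and biglycan (Bgn) carry chondroitin or dermatan sulphate chains, while fibromodulin (Fmod), lumican (Lum), keratocan (Kera) and osteomodulin (Omd) carry keratan sulphate. Several also bind growth factors, and decorin is a well-known binder of transforming growth factor beta. Fibroblasts, tendon, cartilage and cornea are among their main sources.

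PA1 was read as Pagr1a, a gene for which PA1 is a recorded synonym and whose protein belongs to the KMT2C and KMT2D histone methyltransferase complexes. Its brightest probe set read 108 and 113 in PA1 -/- cells, against 1340 and 1389 in PA1 +/+ cells, so the arrays went with their labels, although the labels do not say which part of the gene the allele loses. Signals are MAS5 values in arbitrary units, with array medians between 63.2 and 66.4. Log2 differences are PA1 -/- minus PA1 +/+ of log2(signal + 9.96), a scale that understates the change of dim genes. Arrays of the same number correlated at 0.971 and 0.977 over the tested probe sets, above the 0.920 between the PA1 -/- arrays and the 0.918 between the PA1 +/+ arrays. Differences are therefore also given within each number, where 1 array a genotype allows no test.

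Of the 10 genes, 8 were below 0 in the mean difference and 2 (Lum and Epyc) above it, each read through its brightest probe set. Among all 10714 genes bright enough to be tested, 5004 were below 0. That count leaves out 5 of the 10 members, which were too dim, so the counts cover unlike sets of genes. In such bulk RNA, fewer cells of a kind and less RNA per cell cannot be told apart. Dcn, Bgn, Prelp, Aspn and Ogn were bright enough to be tested, and the other 5 were not. The cut was made on the mean of log2(signal + 9.96), at a value that corresponds to a signal of about 62.8. With genotype as the only term, 0 of the 8 tested probe sets of these genes passed limma at an adjusted p under 0.05, and the count over all 22519 probe sets was also 0 (0%). At an unadjusted p under 0.05, 1 of the 8 passed, the Dcn probe set, against 1.95% of all probe sets tested. With 2 arrays a genotype, the smallest p of an exact permutation test is 0.333.

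**Figure D1:**
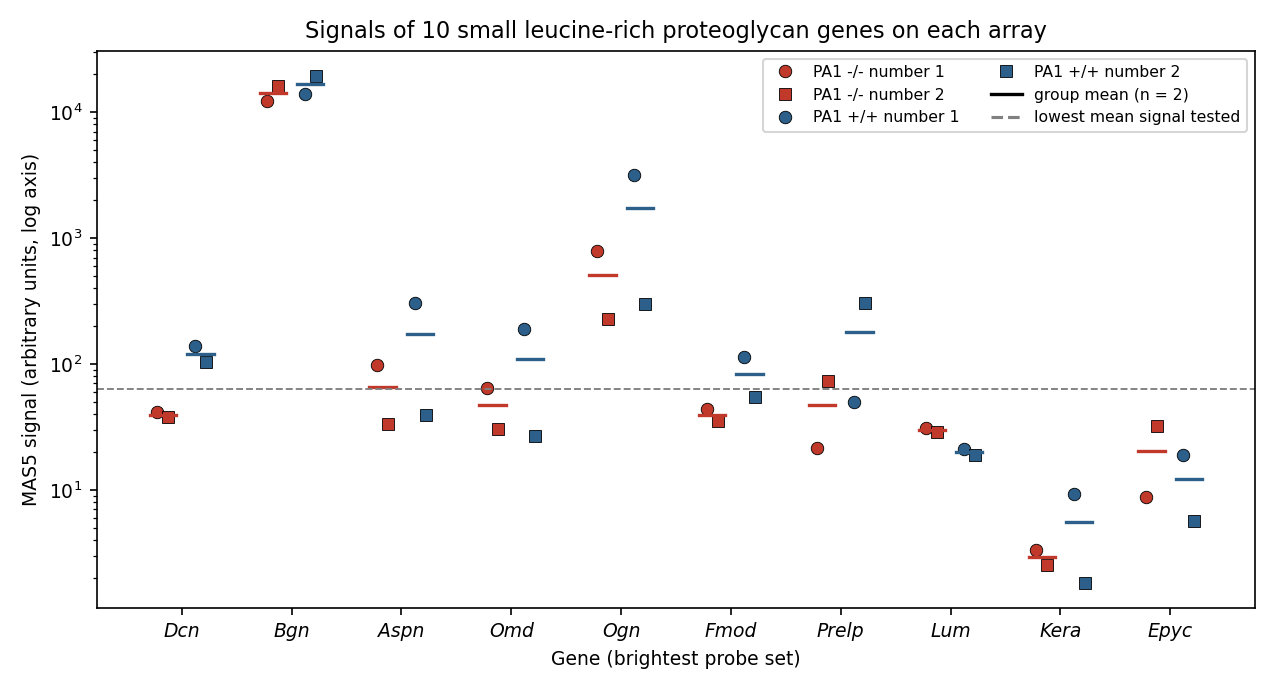
MAS5 signal (arbitrary units, log axis) of each gene's brightest probe set on each array, PA1 -/- left of PA1 +/+, with circles for number 1, squares for number 2 and bars for group means (n = 2 each). The groups lie apart for Dcn, Fmod and Lum, while for Aspn, Omd and Ogn the PA1 +/+ array numbered 1 stands far above the other 3 arrays.

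Decorin was at least 2-fold lower in PA1 -/- cells at each number, by its brightest probe set. Dcn read 41.4 and 37.9 in PA1 -/- cells, against 138 and 103 in PA1 +/+ cells. Both PA1 -/- arrays lay below both PA1 +/+ arrays. The log2 difference was -1.38 (SE 0.334, n = 2 each; limma unadjusted p = 0.00991, adjusted p = 0.9998), with -1.53 at number 1 and -1.24 at number 2. A second, dimmer probe set read 2.95 and 2.29 in PA1 -/- cells, against 13.9 and 16.5 in PA1 +/+ cells, again without overlap. Its log2 difference was -0.997, although all 4 signals were so low that the added 9.96 weighs on it. Dcn passed the brightness filter through its PA1 +/+ arrays, since both PA1 -/- arrays read below it.

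Biglycan, the closest relative of decorin, showed no such separation. Its brightest probe set read 12334 and 16109 in PA1 -/- cells, against 13883 and 19347 in PA1 +/+ cells. Each genotype's array numbered 2 was above its array numbered 1, and the genotypes overlapped. The log2 difference was -0.22 (SE 0.232, limma adjusted p = 0.9998). The other Bgn probe sets differed by -0.09 (SE 0.268) and -0.12 (SE 0.291). All 3 were lower in PA1 -/- cells at both numbers, by less than their number 2 arrays exceeded their number 1 arrays (0.38 to 0.60 on the log2 scale). The added 9.96 has almost no weight at such signals.

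Fibromodulin, a regulator of collagen fibril growth and cross-linking in tendon, was read by 6 probe sets, all below the brightness needed for the test. Its brightest read 43.6 and 35.2 in PA1 -/- cells, against 113 and 54.2 in PA1 +/+ cells (log2 difference -0.85, with -1.20 at number 1 and -0.51 at number 2). The 1 probe set not of the _x_at kind read 31.8 and 24.5 in PA1 -/- cells, against 95.7 and 74.8 in PA1 +/+ cells. That probe set differed by -1.32, with -1.34 at number 1 and -1.30 at number 2. The suffix _x_at marks probe sets with probes that resemble other transcripts, and 5 of the 6 carry it. All 6 were lower in PA1 -/- cells in the mean, 5 of them at both numbers, and for 4 the genotypes did not overlap. The exception at number 2 was the probe set with a mean difference of -0.13, which was 0.06 higher there.

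Prelp encodes a heparin-binding member of the family that anchors basement membranes to the matrix. Its brightest probe set read 21.7 and 73.2 in PA1 -/- cells, against 49.9 and 308 in PA1 +/+ cells. The arrays numbered 2 were higher than those numbered 1 in both genotypes, and at each number the PA1 -/- array was the lower one. The genotypes overlapped, since the PA1 -/- array numbered 2 exceeded the PA1 +/+ array numbered 1. The log2 difference was -1.43 (SE 0.951, limma adjusted p = 0.9998), with -0.92 at number 1 and -1.93 at number 2. A dimmer probe set read 3.93 and 20.4 in PA1 -/- cells, against 15.7 and 163 in PA1 +/+ cells, a log2 difference of -1.70. It gave -0.88 at number 1 and -2.51 at number 2.

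Aspn, Omd and Ogn, which lie next to each other in the genome, shared 1 pattern over the 4 arrays. Osteoglycin (Ogn), which was first purified from bone, read 796 and 226 in PA1 -/- cells, against 3179 and 297 in PA1 +/+ cells. Asporin (Aspn), a class I member named for its run of aspartates, read 98.6 and 33.5 in PA1 -/- cells, against 307 and 39.5 in PA1 +/+ cells. Osteomodulin (Omd), a bone matrix protein, read 64.3 and 30.4 in PA1 -/- cells, against 191 and 26.8 in PA1 +/+ cells. In each of the 3 the PA1 +/+ array numbered 1 was highest, the PA1 -/- array numbered 1 came next, and both arrays numbered 2 were low.

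Within number 1 the log2 differences were -1.98 for Ogn, -1.55 for Aspn and -1.44 for Omd. Within number 2 they were -0.38 for Ogn, -0.19 for Aspn and 0.14 for Omd, so the genotypes lay closer together there. Ogn's second probe set gave -1.95 at number 1 and 0.05 at number 2, and Aspn's second gave -1.74 and -0.29. In the fit over all arrays Ogn differed by -1.18 (SE 1.26) and Aspn by -0.87 (SE 1.01), each with a limma adjusted p of 0.9998. Without the PA1 +/+ array numbered 1 the mean differences changed sign, to 0.51 for Ogn, 0.47 for Aspn and 0.58 for Omd. That setting leaves only number 2 in PA1 +/+ cells and so also carries the difference between numbers.

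In PA1 +/+ cells these genes differed more between numbers than between genotypes. Number 2 minus number 1 was -1.78 in PA1 -/- cells and -3.38 in PA1 +/+ cells for Ogn. For Aspn it was -1.32 in PA1 -/- cells and -2.68 in PA1 +/+ cells, and for Omd -0.88 in PA1 -/- cells and -2.45 in PA1 +/+ cells. Prelp went the other way, with 1.39 in PA1 -/- cells and 2.41 in PA1 +/+ cells. In PA1 +/+ cells 4 of the 10 members differed at least 4-fold between numbers, against 3.23% of all 18193 genes.

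**Figure D2:**
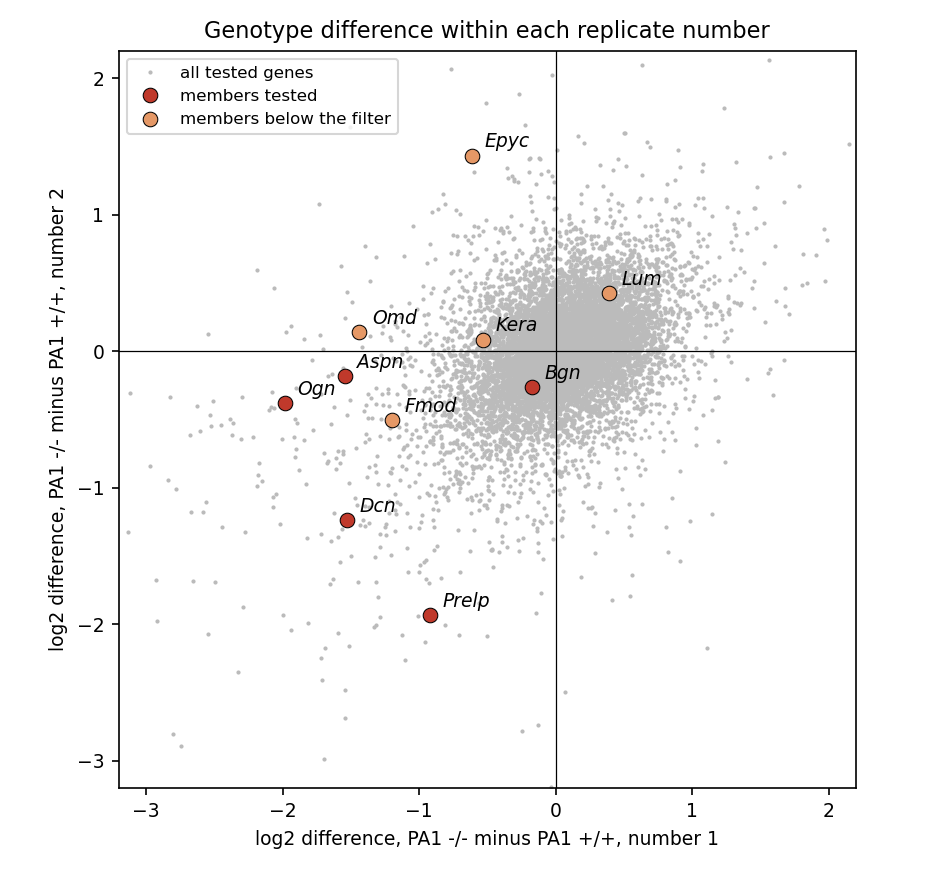
Log2 difference, PA1 -/- minus PA1 +/+, between the arrays numbered 1 (horizontal axis) and numbered 2 (vertical axis), with each tested gene in grey and the 10 family members labelled; 19 tested genes lie outside the axes. Dcn is below -1 on both axes, Prelp is lowest at number 2, Ogn, Aspn and Omd are low at number 1 and nearer to 0 at number 2, and Bgn lies close to 0 on both.

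Lum, Kera and Epyc stayed dim on every array, and none was tested. Lumican, a keratan sulphate proteoglycan of cornea and skin, read 31.1 and 28.9 in PA1 -/- cells, against 21.3 and 19.0 in PA1 +/+ cells. It was the 1 member higher in PA1 -/- cells at both numbers (log2 differences of 0.39 and 0.43), without overlap between genotypes. Such readings were common: of the 10714 tested genes, which do not include Lum, 3632 were higher at both numbers. Of the same genes, 1608 were higher without overlap. Keratocan, which is typical of cornea, read 3.32 and 2.53 in PA1 -/- cells, against 9.29 and 1.84 in PA1 +/+ cells. Epiphycan, a growth plate cartilage proteoglycan, read 8.81 and 32.1 in PA1 -/- cells, against 18.8 and 5.61 in PA1 +/+ cells. Its difference had opposite signs at the numbers (-0.61 at number 1 and 1.43 at number 2). Lum, Kera and Epyc each have 1 probe set, as does Omd, so none of these readings has a second one beside it.

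Over the whole family, 6 of the 10 genes were lower in PA1 -/- cells at both numbers, against 27.4% of all 18193 genes without a brightness filter. On the log2(signal + 9.96) scale, 1 of the 10, Dcn, was at least 2-fold lower at both numbers, against 0.945% of those genes. On signals with nothing added there were 2, Dcn and Prelp, against 2.67%. These counts read each gene through its brightest probe set. With 9.96 added, 3 of the 6 Fmod probe sets were at least 2-fold lower at both numbers, but not the brightest. The Fmod probe set not of the _x_at kind was among these 3. For 2 of the 10, Dcn and Fmod, the PA1 -/- arrays lay below the PA1 +/+ arrays without overlap, against 12.7%. With 9.96 added, 5 of the 10 were at least 2-fold lower at number 1 (Dcn, Fmod, Aspn, Omd and Ogn), against 4.51% of all genes. With nothing added 8 were, since Prelp, Kera and Epyc joined them, but the share of all genes was not computed on that scale. Kera and Epyc were dim on every array, where small signal differences give large ratios. At number 2 there were 2 on either scale (Dcn and Prelp), against 4.49% of all genes with 9.96 added. The median log2 difference of the 10 was -0.75, with -1.06 at number 1 and -0.23 at number 2, against 0.02 for all 18193 genes. Without the PA1 +/+ array numbered 1 the median was 0.30, and without the PA1 -/- array numbered 2 it was -0.25. With a pseudocount at the median signal (64.9), Dcn was at -0.82, Prelp at -0.92 and Fmod at -0.48, and the median at number 1 was -0.56.

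Of the 10 members, 9 lie in 3 runs of neighbouring genes, by gene order in the RefSeq assembly GRCm38.p6, and Bgn lies apart from them. Genes of 1 run did not all read alike. Dcn read lower in PA1 -/- cells at both numbers, while its neighbour Lum read higher and Kera and Epyc changed sign between numbers. Prelp and Fmod, which are adjacent, were both lower at both numbers, yet Prelp was brighter at number 2 and Fmod at number 1. Optc, a further family gene on the other side of Prelp, was dim and read 80.5 and 59.4 in PA1 -/- cells, against 51.2 and 41.3 in PA1 +/+ cells.

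The tested genes that flank Aspn, Omd and Ogn differed less at number 1 than these 3 did. Nol8, which follows Ogn, read 307 and 327 in PA1 -/- cells, against 269 and 394 in PA1 +/+ cells. Iars, an isoleucyl-tRNA synthetase gene that comes next, differed by 0.11 in the mean. Cenpp, a centromere protein gene on the other side, read 562 and 617 in PA1 -/- cells, against 896 and 788 in PA1 +/+ cells. Ecm2, a further leucine-rich repeat gene between Cenpp and Aspn, was dim on all arrays, between 10.7 and 26.2. A gene of the Atp2b family of calcium pumps stood within 2 protein-coding places of a member in 3 of the 4 locations. Of these, Atp2b1 was the 1 tested, and its brightest probe set differed by -1.03.

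**Figure D3:**
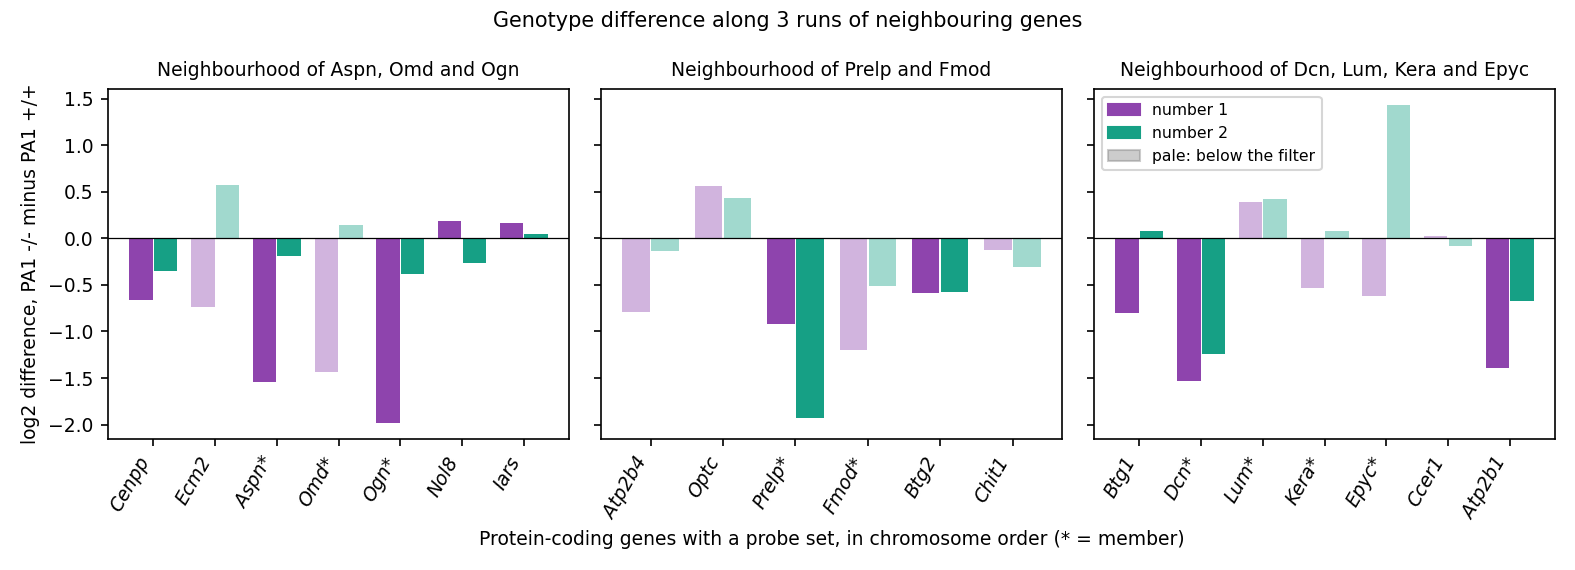
Log2 difference, PA1 -/- minus PA1 +/+, at number 1 and number 2 for members (starred) and flanking protein-coding genes with a probe set, in chromosome order and not to scale along the chromosome; pale bars are genes below the brightness filter. Ogn, Aspn and Omd reach -1.98, -1.55 and -1.44 at number 1, between flanking genes whose tested differences at that number run from -0.66 to 0.18.

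The sequences upstream of the 3 neighbours that shared a pattern are shown with that of Bgn, whose genotypes overlapped, to compare their letters. They come from RefSeq (GRCm38.p6), span 250 bases up to the transcription start and run 5′ to 3′ in the gene's direction. Of the 10 members, 8 had such a window. Capitals mark matches on either strand to the TATA box (TATAAA), the CCAAT box (CCAAT), the GC box (GGGCGG), the AP-1 motif (TGANTCA) or the C/EBP motif (TTNNGCAA).
Aspn (chr13:49544193-49544442, plus strand): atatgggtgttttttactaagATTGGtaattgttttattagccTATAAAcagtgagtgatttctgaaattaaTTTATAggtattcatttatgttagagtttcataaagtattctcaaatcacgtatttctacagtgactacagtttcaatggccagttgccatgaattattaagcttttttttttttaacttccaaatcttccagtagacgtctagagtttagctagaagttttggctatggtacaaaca
Omd (chr13:49582212-49582461, plus strand): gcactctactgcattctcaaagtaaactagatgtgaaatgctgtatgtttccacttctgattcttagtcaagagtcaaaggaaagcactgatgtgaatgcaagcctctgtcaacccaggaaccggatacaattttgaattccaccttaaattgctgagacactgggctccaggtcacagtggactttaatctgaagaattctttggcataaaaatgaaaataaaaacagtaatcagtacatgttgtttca
Ogn (chr13:49607765-49608014, plus strand): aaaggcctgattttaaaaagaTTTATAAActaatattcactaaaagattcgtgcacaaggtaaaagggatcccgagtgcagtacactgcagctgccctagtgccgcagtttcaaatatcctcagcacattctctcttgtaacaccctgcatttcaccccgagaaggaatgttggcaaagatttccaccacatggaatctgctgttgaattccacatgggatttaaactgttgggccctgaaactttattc
Bgn (chrX:73483351-73483600, plus strand): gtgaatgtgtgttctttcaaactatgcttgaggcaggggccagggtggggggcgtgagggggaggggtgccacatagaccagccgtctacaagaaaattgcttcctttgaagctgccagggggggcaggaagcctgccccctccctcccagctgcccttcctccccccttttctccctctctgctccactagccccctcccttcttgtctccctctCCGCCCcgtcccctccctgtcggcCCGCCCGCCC

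No motif searched was common to the windows of Aspn, Omd and Ogn. Ogn held TATAAA on both strands, in overlapping matches whose first bases lie at -229 and -227 from the start. Aspn held it at -207 and, on the opposite strand, at -178, and held CCAAT on the opposite strand at -229. TATAAA occurred in 12.4% of 32851 windows of the same length and CCAAT in 33.8%. The Bgn window held GGGCGG on the opposite strand at -34, -10 and -6, the last pair overlapping, a motif found in 32.7% of windows. None of these 4 windows held the AP-1 motif (6.75% of windows) or the C/EBP motif (9.56%). CpG dinucleotides numbered 2 in the Aspn window, 1 in Omd, 4 in Ogn and 7 in Bgn, with a median of 6 over all windows. A match describes letters only, not a bound site.

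Genes whose values ran most like those of a member over the 4 arrays differed between members. Likeness was the root mean square distance between log2 profiles centred on their own mean, over 4 arrays and 10714 tested genes, and was given no test. Closest to Dcn were Cd248, which encodes the stromal cell surface protein endosialin, at 0.115, then Tmem119 at 0.124 and Ddah1 at 0.127, against a median distance of 0.774. Cd248 read 194 and 205 in PA1 -/- cells, against 604 and 541 in PA1 +/+ cells. Closest to Ogn were Wnt11 at 0.129, Msln (mesothelin, a mesothelial surface protein) at 0.187 and Olfml3 at 0.207. Aspn ranked 12 among the genes nearest to Ogn, at 0.334. Closest to Aspn were Cytip, Grtp1 and Xaf1, at 0.126, 0.155 and 0.176. Closest to Prelp were the growth factor gene Pgf at 0.150, Gfra1 at 0.194 and Plpp3 at 0.256. Bgn, whose profile was nearly flat, lay nearest to Map3k6, Ergic1 and Iah1, all within 0.0190. A profile of 4 arrays leaves likeness loosely defined.

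Collagens, the main partners of these proteoglycans in the matrix, mostly read lower in PA1 -/- cells. Of 13 tested genes in a list of fibril-forming and fibril-associated collagens that also holds collagen VI, 12 were below 0. The median of the 13 was -0.47, against 0.02 over all tested genes. At both numbers 9 of the 13 were lower, against 29.3% of all tested genes. The median was -0.14 within number 1 and -0.68 within number 2. None passed at an adjusted p under 0.05. At an unadjusted p (limma) 2 did, both lower, against 1.34% of all tested genes lower at that p. These 2 were the collagen VI genes Col6a2 and Col6a1. Col6a2, a chain of the collagen VI that decorin and biglycan bind, read 2175 and 1189 in PA1 -/- cells, against 4358 and 3679 in PA1 +/+ cells (log2 difference -1.31, SE 0.349). Its partner chain gene Col6a1 read 2183 and 2239 in PA1 -/- cells, against 3551 and 4407 in PA1 +/+ cells (-0.84, SE 0.212). Col14a1, a fibril-associated collagen, read 38.2 and 54.2 in PA1 -/- cells, against 264 and 72.8 in PA1 +/+ cells. Like Ogn, Col14a1 was highest on the PA1 +/+ array numbered 1.

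Enzymes that build the sugar chains showed no common direction. Of 18 tested genes for the linker, chondroitin and dermatan sulphate chains, 8 were below 0 and 10 above, with a median of 0.04. B3galt6, which adds a linker galactose, differed by -0.71 (SE 0.400), and B4galt7, which adds the galactose before it, by 0.50 (SE 0.318). Csgalnact2, which starts chondroitin chains, differed by 0.45 (SE 0.326). Of 5 tested genes for keratan sulphate chains 2 were below 0 and 3 above, with a median of 0.04 and the fucosyltransferase gene Fut8 at 0.34 (SE 0.265). No gene of either list passed limma at an adjusted or an unadjusted p under 0.05.

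Other proteoglycan core proteins were mixed, with 9 of 17 tested genes below 0, a median of -0.07 and 2 at an unadjusted p under 0.05, both lower (1.34% of all tested genes). Sdc3, a cell surface heparan sulphate proteoglycan, read 1493 and 1975 in PA1 -/- cells, against 368 and 1117 in PA1 +/+ cells (log2 difference 1.40, SE 0.573). Tgfbr3, the betaglycan co-receptor for transforming growth factor beta, read 360 and 607 in PA1 -/- cells, against 1057 and 843 in PA1 +/+ cells (-0.998, SE 0.353). Col18a1 read 137 and 116 in PA1 -/- cells, against 247 and 244 in PA1 +/+ cells (-0.91, SE 0.277). Podn was the 1 tested gene of the wider leucine-rich family outside the 10 and differed by -0.27.

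Proteases that cut these proteoglycans or process and cross-link collagen had a median of -0.02 over 16 tested genes, 10 of them below 0, and 0 at an unadjusted p under 0.05 (limma). Loxl4, a lysyl oxidase that cross-links collagen, read 759 and 312 in PA1 -/- cells, against 308 and 214 in PA1 +/+ cells (0.90, SE 0.504). Receptors and growth factors that family members bind had a median of 0.03 over 16 tested genes, with 8 on each side of 0. Bmp4, a growth factor whose activity biglycan modulates, was the 1 of them at an unadjusted p under 0.05. It read 460 and 569 in PA1 -/- cells, against 2814 and 1303 in PA1 +/+ cells (-1.88, SE 0.435, limma adjusted p = 0.9998). Tlr4, a receptor that soluble biglycan activates, differed by 0.41 (SE 0.290), and the integrin gene Itgb1 by 0.32 (SE 0.195).

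**Figure D4:**
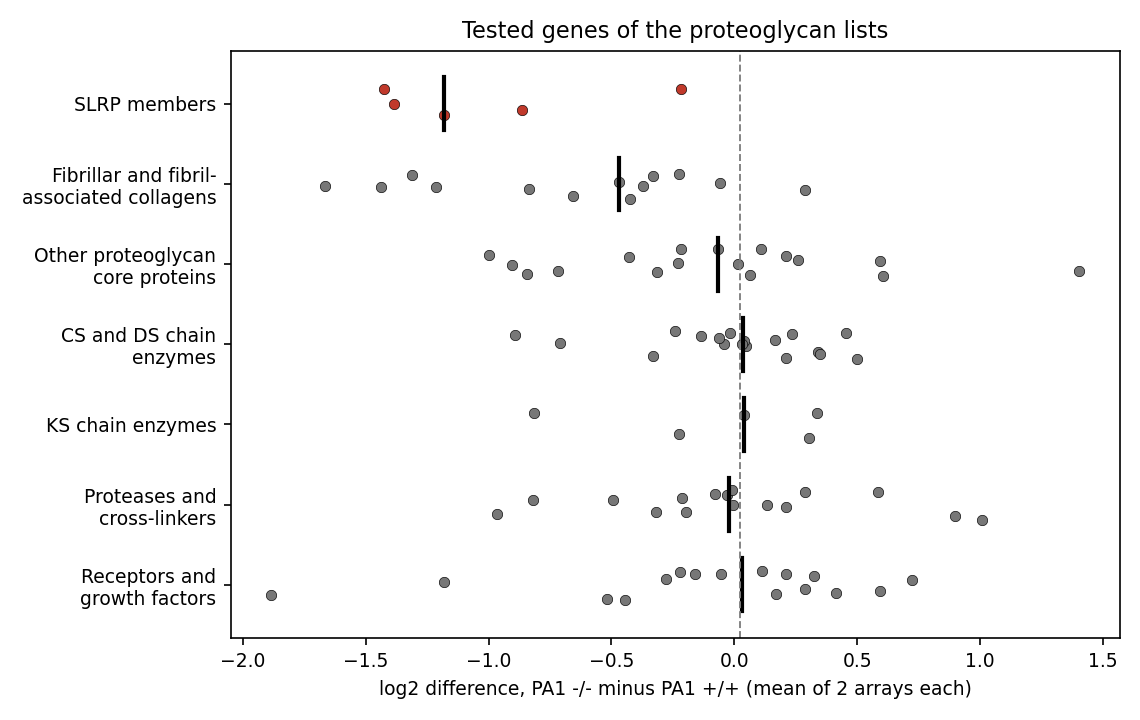
Mean log2 difference, PA1 -/- minus PA1 +/+ (2 arrays each), of each tested gene in the family and in 6 related lists; black bars are list medians and the dashed line is the median of all tested genes (0.02). The 5 tested family members run from -1.43 to -0.22, and passing the brightness filter through PA1 +/+ arrays can favour low values among them.

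All 10 marker genes of fibroblasts were bright enough to be tested, with single signals from 69.1 to 29120. They summed to 81130 and 89840 in PA1 -/- cells, against 90990 and 110000 in PA1 +/+ cells. Of these 10, 6 were lower in PA1 -/- cells at both numbers, against 29.3% of all tested genes, and Col1a1 and Col1a2 are among the 6. The mesenchymal transcription factor gene Prrx1 read 1160 and 69.1 in PA1 -/- cells, against 2850 and 295 in PA1 +/+ cells. The 4 epithelial markers summed to 443 and 267 in PA1 -/- cells, against 657 and 233 in PA1 +/+ cells, so their sum was highest on the PA1 +/+ array numbered 1. Cdh1 and Krt18 were highest there, at 160 and 298, while Epcam was highest on the PA1 -/- array numbered 2 (190) and Krt8 on the PA1 +/+ array numbered 2 (55.2). Of the 5 cartilage markers, Acan (aggrecan) read 118 and 27.6 in PA1 -/- cells, against 328 and 12.1 in PA1 +/+ cells, and Matn1 and Comp were below the filter. Sox9 read 530 and 317 in PA1 -/- cells, against 448 and 433 in PA1 +/+ cells, and Col2a1 read 1201 and 275 in PA1 -/- cells, against 1146 and 1598 in PA1 +/+ cells, so neither was highest on the PA1 +/+ array numbered 1. The part of these cells in the pattern of Aspn, Omd and Ogn was not tested. The summed cartilage markers were 1894 and 673 in PA1 -/- cells, against 1977 and 2113 in PA1 +/+ cells. Tendon markers summed to 467 and 527 in PA1 -/- cells, against 548 and 478 in PA1 +/+ cells, but the single genes differed. Tnmd, below the filter, read 134 and 14.3 in PA1 -/- cells, against 202 and 1.32 in PA1 +/+ cells. Scx read 225 and 139 in PA1 -/- cells, against 235 and 153 in PA1 +/+ cells, so both were highest on the PA1 +/+ array numbered 1. Mkx went the other way, with 108 and 373 in PA1 -/- cells, against 112 and 324 in PA1 +/+ cells. Bone, macrophage, endothelial and skeletal muscle markers summed to between 19.6 and 422, and none of the 3 skeletal muscle genes exceeded 29.8. The bone sum holds only 3 of the 5 markers listed, since Runx2 and Bglap had no probe set of their own. Of these 3, Ibsp and Alpl were below the filter. Smooth muscle markers summed to 36330 and 34230 in PA1 -/- cells, against 29710 and 33460 in PA1 +/+ cells, with Myh11 below the filter.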

How the data were processed

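Each of the 4 arrays gave intensity values for 45037 probe sets besides 64 controls. Per the submitters' processing notes, the authors made these deposited linear intensity values with MAS5; the sources used here give neither its version nor its scaling target. The trimmed means of the arrays lay between 497.6 and 497.9, so a change shared by most genes would not show. The small number of arrays limits precision, and detection calls were left unused. Names came from the platform annotation, which gives 1 symbol for 34945 probe sets, several for 932 and none for 9160. All 10 members' gene identifiers were found in the RefSeq table of GRCm38.p6, and all kept their symbols.

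Signals were taken as log2(signal + 9.96), the constant being the 20th percentile of all values. The brightest 50% of probe sets by mean log2 value (22519) entered the test with limma 3.58.1 in R 4.3.3 (lmFit, eBayes with trend), 2-sided, with genotype as the only term, 2 residual degrees of freedom and Benjamini-Hochberg adjustment over all of them. Genes were read through their brightest probe set (10714 tested genes). Named were the 10 members, Pagr1a, per related list up to 3 genes with the largest difference and no overlap between genotypes, and the 3 genes most like each tested member. The members and lists were chosen with earlier results of these data known. Alternatives were other normalizations, pseudocounts, filters and variance models, averaging each gene's probe sets, a block for the replicate number, and fits without each array. Plots used matplotlib 3.10.9 (Python 3.11.15).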

Additional observations from a re-analysis of the deposited data

How the results depend on the processing

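Labels do not say that a shared number marks a shared culture or day, but samples of 1 number deviated together from their genotype means (correlation 0.805 over tested probe sets). With the replicate number as a block, 447 probe sets passed instead of 0, 329 of them lower in PA1 -/- cells (1.46% of all tested). Of the 8 tested probe sets of family members, 2 then passed, both lower, for Dcn (-1.38, limma adjusted p = 0.0310) and Prelp (-1.43, 0.0418), while Ogn (0.0728), Aspn (0.225) and Bgn (0.282) did not. Dcn had passed the filter through its PA1 +/+ arrays, and Prelp through its arrays numbered 2, chiefly the PA1 +/+ one (308). Neither is tested when 30% of probe sets are kept. With the block and no filter, an alternative chosen after seeing the data, 9 probe sets passed in all and 0 of the members' (Dcn 0.310, Prelp 0.336). The block takes the difference between numbers out of the residual spread. It also leaves fewer residual degrees of freedom than the 2 of the fit without it. Its p-values therefore lean more on the spread that limma pools over all tested probe sets. Without the block, under the other normalizations, pseudocounts, filters and variance models, and without any 1 array (range 0 to 0), 0 probe sets passed in all and 0 among members.

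The differences of 6 members changed sign when 1 array was left out, that of Epyc in 2 such settings. Without the PA1 +/+ array numbered 1, Ogn was at 0.51, Aspn at 0.47, Omd at 0.58 and Kera at 0.13. Without the PA1 +/+ array numbered 2, Bgn was at 0.022 and Epyc at -0.033, and without the PA1 -/- array numbered 2 Epyc was at -0.17. Dcn ranged from -1.58 to -1.19, Prelp from -2.63 to -0.22 and Fmod from -1.32 to -0.39 without 1 array, and Lum from 0.35 to 0.47. The lowest values without 1 array were -2.87 for Ogn, -2.21 for Aspn, -1.88 for Omd, -0.58 for Kera and -0.46 for Bgn, and the highest of Epyc was 0.99. Such fits hold unequal numbers per genotype and so carry part of the difference between numbers. The medians of the 10 members within number 1 and within number 2 moved by less than the spread between numbers under each normalization and pseudocount. The pseudocount at the median signal still changed the median at number 1 to -0.56, against -1.06.

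Medians of the related lists moved too, and the cause was not tested. The chondroitin and dermatan sulphate median was -0.016 after quantile and -0.025 after cyclic loess normalization. The median of the other proteoglycans was -0.11 and -0.13 after these, -0.023 with a pseudocount of 1, -0.00014 without the filter and -0.14 when 30% of probe sets were kept. Without the filter the keratan sulphate median was 0.34 and that of receptors and growth factors -0.19. Leaving out 1 array gave medians of -1.12 to -0.17 for collagens, -0.098 to 0.052 for chondroitin and dermatan sulphate enzymes, -0.11 to 0.018 for other proteoglycans and -0.34 to 0.42 for proteases and cross-linking enzymes.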
